A study of Homo sapiens with 12 samples.

Results

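The peaks described here are those that an anti-m1G pull-down placed outside every protein-coding gene span of the RefSeq gene table. They were chosen by position alone: MetDiff peaks whose exon blocks overlap no such span (GRCh38), and MACS2 summits inside none, with the mitochondrial genome left out. MetDiff and MACS2 name the 2 deposited lists: the first gives peaks over exon blocks with a fold, the second positions of 1 base (summits) with −log10 q. The rule kept 189 of 9583 MetDiff peaks (1.97%) and 334 of 3682 summits (9.07%), 523 in all. Each was placed in a class by the gene it overlaps: ribosomal RNA (rRNA), long non-coding RNA (lncRNA), pseudogene, other RNA, or no gene of any kind in the RefSeq table (called no gene below). A member overlapping genes of several classes took the first of these classes that applied. Overlap was judged by position, without the strand or Ensembl ID of a MetDiff peak. A peak named after a gene may therefore come from another gene at the same place.

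The study used PANC-1, a cell line established from a ductal adenocarcinoma of the pancreas. RNA enriched for poly(A) was broken into fragments of 100 to 200 bases and precipitated with an antibody against 1-methylguanosine (m1G), or kept as input. The 12 libraries form 4 groups of 3: input RNA of control cells, m1G-precipitated RNA of control cells, and both again from cells given siRNA against TRMT5 for 4 days, all as experiment 2. The labels describe siRNA transfection for all samples and do not say which siRNA the control cells received. They also do not say whether replicates were separate cultures. The lists hold no value for a single library or group, so no difference between control and knockdown, and no spread between replicates, can be given. No test was made.

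m1G is guanosine with a methyl group at position N1, on the edge that pairs with cytosine. TRMT5 writes it in tRNAs, at the guanosine next to the anticodon, where it helps to hold the reading frame. RNA outside protein-coding genes covers very different molecules: rRNA cut from a long precursor, lncRNAs such as NEAT1 and MALAT1 that stay in the nucleus, small structured RNAs such as those of the signal recognition particle and RNase P, and transcripts of pseudogenes, copies of genes that often differ from their parent by few bases.

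The largest group of summits outside protein-coding spans lay right in front of a protein-coding gene. Of the 334 summits, 131 (39.2%) fell within 100 bases before the annotated start of 131 different genes, 123 of them in no gene of any kind and 8 in an lncRNA. The sequences below are the 100 bases before the start for the 9 such genes with the highest −log10 q, read along the gene from 5′ to 3′, so that the gene begins right after the last base. They are shown because these positions carry most of the strong values in no annotated gene. Capitals mark the summit with up to 3 bases on each side, and the sequences are RefSeq's (GRCh38.p14).
DNAJB11: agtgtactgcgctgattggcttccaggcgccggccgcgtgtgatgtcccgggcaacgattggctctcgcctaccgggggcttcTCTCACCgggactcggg
CYB5A: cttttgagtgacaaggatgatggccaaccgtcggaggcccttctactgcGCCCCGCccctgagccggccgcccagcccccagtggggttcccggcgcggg
UBE2S: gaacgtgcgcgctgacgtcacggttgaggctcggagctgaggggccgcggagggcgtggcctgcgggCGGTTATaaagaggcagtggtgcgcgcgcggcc
PRELID1: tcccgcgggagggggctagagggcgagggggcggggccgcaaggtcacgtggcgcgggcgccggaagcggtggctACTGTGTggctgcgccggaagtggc
REXO2: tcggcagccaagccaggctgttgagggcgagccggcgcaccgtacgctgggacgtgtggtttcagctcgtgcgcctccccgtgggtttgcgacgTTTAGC
PPP1CC: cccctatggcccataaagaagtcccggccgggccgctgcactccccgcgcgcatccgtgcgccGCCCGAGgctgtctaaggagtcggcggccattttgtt
LRRC59: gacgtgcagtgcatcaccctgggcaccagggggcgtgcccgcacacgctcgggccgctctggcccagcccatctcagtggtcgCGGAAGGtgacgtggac
CTSZ: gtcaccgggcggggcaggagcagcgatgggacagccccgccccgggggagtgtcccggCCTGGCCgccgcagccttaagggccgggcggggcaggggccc
HSP90B1: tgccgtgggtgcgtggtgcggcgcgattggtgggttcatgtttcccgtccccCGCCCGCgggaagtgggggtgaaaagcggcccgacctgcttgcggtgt
In the order shown, the windows lie at chr3:186570620-186570719 (plus strand), chr18:74291964-74292063 (minus), chr19:55407789-55407888 (minus), chr5:177303699-177303798 (plus), chr11:114439367-114439466 (plus), chr12:110742892-110742991 (minus), chr17:50397524-50397623 (minus), chr20:59007255-59007354 (minus) and chr12:103930310-103930409 (plus).

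All values below are the authors'. No header names the contrast behind the MetDiff fold. It was taken as precipitated over input, going by its column, and this reading is not settled. The fold is on a linear scale. The MACS2 value was taken as −log10 q, since the smallest one in the list, 1.35, lies just above the usual limit of 0.05. Read depth is unknown. As a check of the cell type, the epithelial keratins KRT8 and KRT18 and the mesenchymal filament gene VIM had peaks in both lists and KRT19 had 1 MetDiff peak, while KRT7 had none in either list. PTPRC, ALB, INS, PRSS1 and PECAM1, markers of leukocytes, liver, islets, acini and endothelium, had 0 peaks and 0 summits.

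The classes were filled very differently in the 2 lists. Among MetDiff peaks, lncRNAs held 111 of 189 (58.7%), pseudogenes 56 (29.6%), positions in no gene 20 (10.6%), other RNAs 2 and rRNA 0. Among summits, positions in no gene held 230 of 334 (68.9%), lncRNAs 55 (16.5%), pseudogenes 29 (8.68%), rRNA 15 (4.49%) and other RNAs 5. MetDiff blocks come with an Ensembl gene ID and exon blocks, whereas summits do not, so the lists differ in which positions they could hold. The 189 peaks stood under 105 Ensembl IDs at 179 separate places, since 10 overlapped an earlier one. These IDs were not used to set the class: the C2orf74-AS1 peaks, counted as lncRNA, carry the same ID as a peak in the pseudogene AHSA2P alone.

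By fold, MetDiff peaks outside protein-coding spans had a median of 5.31, with quartiles of 3.37 and 8.17 and a range of 1.44 to 61.5. Over all MetDiff peaks the median was 4.5 (1.0 to 61.5). Pseudogene peaks had the highest class median, 5.95, followed by lncRNA peaks with 5.25 and peaks in no gene with 3.84. A fold of at least 10 was listed for 33 of the 189, beside 12.0% of all MetDiff peaks. An FDR under 0.01 was listed for 180 of the 189, beside 91.8% of all. Peaks of a single exon block made up 85.7% of them and 66.6% of the whole list.

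By −log10 q, summits outside protein-coding spans had a median of 11.4 and a range of 1.4 to 241, and summits inside such spans a median of 13.9. The rRNA class had a median of 34.8 and a range of 7.04 to 175, lncRNA one of 10.9, pseudogenes 7.57 and positions in no gene 11.6. A value of at least 30 was listed for 41 of the 334, beside 13.4% of all summits, and 8 of these 41 were in rRNA. The pseudogene class held 1 of them, TPI1P1.

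**Figure D1:**
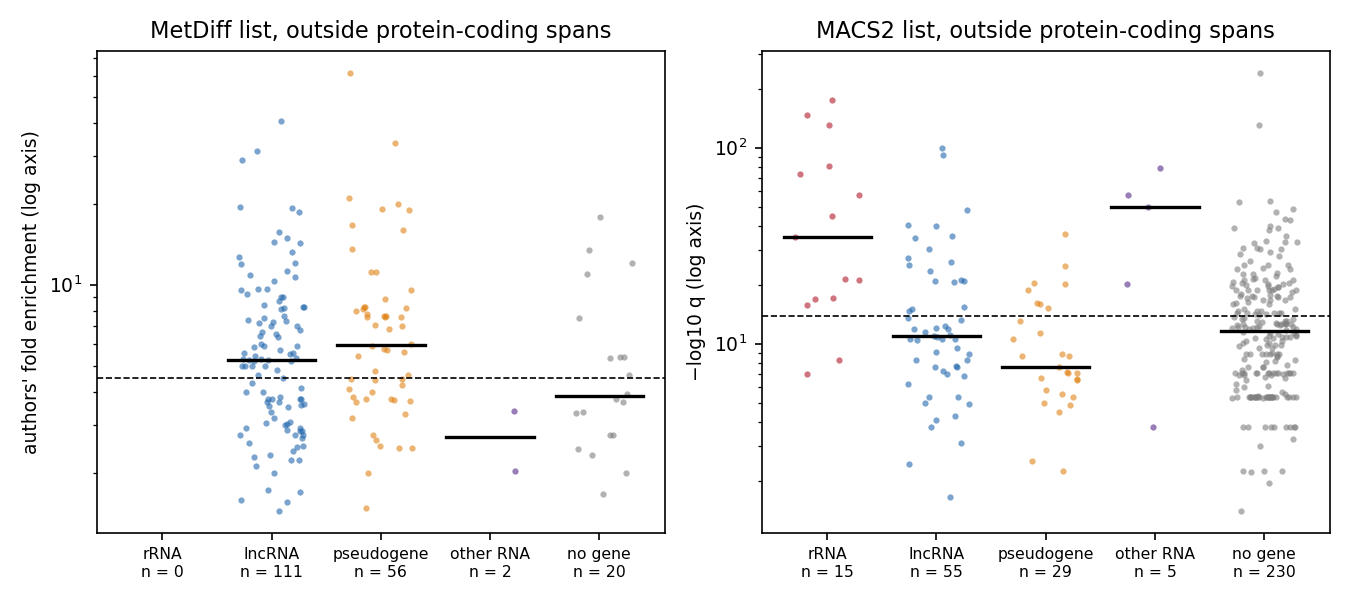
Each point is a MetDiff peak (left, the authors' fold, log axis) or a MACS2 summit (right, −log10 q, log axis) outside protein-coding spans, by class. Thick bars are class medians and the dashed line is the median of peaks inside protein-coding spans, 4.5 and 13.9. The rRNA summits sit mostly above the line, and the single highest summit, at 241, is in no gene.

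Summits outside protein-coding spans and MetDiff blocks seldom coincided. Of the 334 summits, 13 lay inside a MetDiff exon block (3.89%, 95% Wilson interval 2.29 to 6.54, which covers counting error only), beside 17.8% of all summits. Inside protein-coding spans the share was 19% (17.8 to 20.4). Within 150 bases of a block the share rose to 39.2%, and to 66.1% inside protein-coding spans. By class, the share inside a block was 6 of 55 for lncRNA, 6 of 230 for no gene, 1 of 5 for other RNAs, 0 of 29 for pseudogenes and 0 of 15 for rRNA. The same libraries may underlie both lists.

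Around protein-coding starts, summits did not stop at the annotated edge. Within the 100 bases before a start there were 137 summits, of which 131 lay outside all protein-coding spans, and the first 100 bases inside held 158. From 200 to 101 bases before a start there were 6. The 131 lay 1 to 99 bases before the start, with a median of 29 and quartiles of 14.5 and 47. At the other end of genes the picture differed: the last 100 bases inside held 1 summit and the 100 bases after the end held 1, which was in another protein-coding span. Strand, needed to tell starts from ends, was given for 79.7% of protein-coding genes. Of the summits in no gene, 20 lay within 100 bases of a nearest protein-coding gene whose strand was not given. The summit 38 bases from SSNA1 is among these 20 and also among the 131, at 78 bases before ANAPC2.

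**Figure D2:**
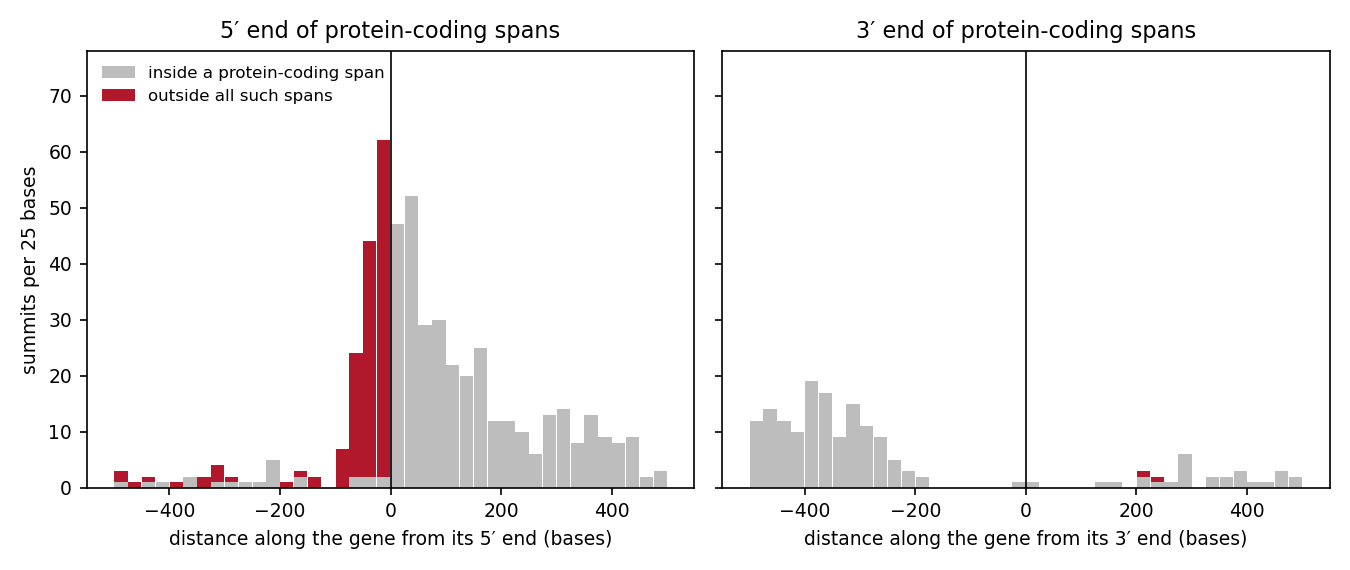
Summits per 25 bases around the 5′ end (left) and 3′ end (right) of protein-coding spans, with distance along the gene in bases. Grey bars are summits inside a protein-coding span and red bars summits outside all such spans. Red bars fill the 100 bases before the 5′ end, 131 summits in all, and nearly none stand at the 3′ end.

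The strongest of these summits stood before genes of several kinds. DNAJB11, a co-chaperone of the endoplasmic reticulum, had −log10 q of 130 at 14 bases before its start, the second highest value of all positions in no gene and rank 7 of all summits. CYB5A, the electron carrier cytochrome b5, had 53.5 at 48 bases before its start. UBE2S, a ubiquitin-conjugating enzyme of the anaphase-promoting complex, had 52.8 at 30 bases. PRELID1, a lipid transfer protein of mitochondria, had 48.7 at 22 bases. REXO2, an exonuclease for short RNA, had 43.3 at 3 bases. PPP1CC, a catalytic subunit of protein phosphatase 1, had 42.7 at 34 bases. The summit before LRRC59, a membrane protein of the endoplasmic reticulum, had 39.8 at 14 bases and lay in its antisense lncRNA LRRC59-AS1. CTSZ, a lysosomal protease, followed with 39.6 at 39 bases. HSP90B1, the Hsp90 chaperone of the endoplasmic reticulum, had 39.1 at 45 bases, and the hairpin of MIR3652 began 60 bases after this summit. The summit before APLP2, for which no sequence window was found, had 39.1 at 44 bases. RNASET2, a lysosomal ribonuclease, had 38.0 at 6 bases. EPHA2, an ephrin receptor, had 35.2 at 12 bases, in its antisense lncRNA EPHA2-AS1. Across all 131 the range was 1.4 to 130 with a median of 13.3, close to the median of 13.7 over the whole list, and 17 reached at least 30. Families were spread thinly among the 131 genes: the small nuclear ribonucleoproteins gave 3 (SNRNP25, SNRNP40 and SNRNP70), the vacuolar ATPase 2 and initiation factors 2.

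Most of these genes also had a MetDiff peak of their own. A MetDiff block overlapped the span of 99 of the 131 genes (75.6%), beside 22.0% of all protein-coding genes, a background that holds genes the cells may not express. A block lay within 150 bases of 82 of the 131 summits (62.6%), beside 64.0% of all summits and 79.7% of the summits in the first 100 bases inside genes. The median −log10 q of the latter was 16.0. The highest fold among such blocks had a median of 8.39 for these 82 summits and reached at least 10 in 30 of them (36.6%), beside 23.8% of all summits near a block. For the 126 summits near a block in the first 100 bases inside genes, the median was 8.59 and the share 41.3%. These folds belong to the blocks and not to the summits: 3 of the 131 summits lay inside a block, and a block can be near summits on both sides of a start. Near the summit of PRELID1 the block had a fold of 30.9, near that of DNAJB11 28 and near that of CYB5A 26.7. UBE2S had 15.9 and CTSZ had no block within this distance.

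The 100 bases before the start were rich in G and C in these genes. Windows were found for 129 of the 131. Their median GC content was 73.0%, beside 66.0% over 13739 windows of protein-coding genes, 71.0% over 3139 windows of genes with a MetDiff peak and 76.0% over 155 windows of genes with a summit in the first 100 bases inside. The median G content was 38.0%, 32.0%, 35.0% and 37.0% in the same order. Against all genes the windows thus stood out, and against genes with a peak by little. The base at the summit itself was C in 50 of the 129 windows (38.8%), G in 47 (36.4%), T in 18 and A in 14, beside a median of 34.0% C and 38.0% G over the bases of the same windows. The share at the summit was thus above the window median for C and below it for G, by little in both. A share over 129 summits is set beside a median over windows here, and the difference was not tested. Over all windows, C made up 31.7% and G 32.5%.

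Short motifs were counted in the same windows, on both strands. TATAAA (or TTTATA), the TATA box, was in 2 of 129 windows (1.55%), UBE2S among them, beside 5.84% of all windows, 2.29% of windows of genes with a MetDiff peak and 2.58% of windows of genes with a summit in the first 100 bases inside. CCAAT (or ATTGG) was in 40 (31.0%), DNAJB11 and HSP90B1 included, beside 21.6%, 22.2% and 20.0% in the same order. GGGCGG (or CCGCCC), the GC box, was in 79 (61.2%), CYB5A and PRELID1 included, beside 42.9%, 58.2% and 72.3%. CTTCCG (or CGGAAG) was in 28 (21.7%), beside 14%, 19.5% and 13.5%. TGACGT (or ACGTCA) was in 10 (7.75%), beside 5.52%, 6.28% and 7.74%. A motif here is a match of letters and not a bound site.

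MetDiff peaks in no gene of the RefSeq table numbered 20. Each carries an Ensembl gene ID, so they lie outside the RefSeq spans and not outside all annotation. The IDs were not matched to gene symbols here. Such a peak may therefore belong to a longer Ensembl form of the protein-coding gene beside it. Of the 20, 13 lay within 1000 bases of a protein-coding span: 9 before a start, 1 after an end and 3 beside a gene whose strand was not given. The highest fold, 17.8, was at 105486565 to 105486714 of chromosome 14, 172 bases before CRIP1, which encodes a small zinc-binding LIM protein. A fold of 13.5 stood 249 bases before the zinc finger gene ZNF446. IRF9, a transcription factor of interferon signalling, had a peak with a fold of 12.0 at 180 bases before its start. MAP3K11, a kinase of the JNK route, had one of 11.0 at 214 bases. These 4 were the peaks in no gene that reached a fold of 10. The next were a pair near HOXC10, a homeobox gene, with 7.5 at 1368 bases and 5.4 at 4122 bases. The second of this pair carried the Ensembl ID of the HOXC-AS2 peak. Another peak with 5.4, 2025 bases from ZSWIM4, carried the Ensembl ID of the MIR23AHG peaks. GNAI3 had 5.33 at 148 bases after its end, RBCK1 4.62 at 75 bases before its start and WASF1 3.93 at 136 bases before its start.

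Far from any protein-coding gene, 60 summits lay in no gene and over 100000 bases from the nearest protein-coding span. Their median −log10 q was 7.07, with a range of 2.24 to 241, they were spread over 19 chromosomes, and 0 lay inside a MetDiff block. The highest value of the entire MACS2 list, 241, was one of them, at position 93470577 of chromosome 3, 402 kb from PROS1. It stood alone, with no other such summit beside it. Most others came in groups: 8 clusters held 32 of the 60. On chromosome 16, 9 summits between 34572718 and 34595563 had values of 2.24 to 20.5, and 8 between 46386237 and 46400779 had values of 3.76 to 35.5. Chromosome Y gave 4 between 11312337 and 11329812, with 2.24 to 7.07. No annotation of repeats was used here, and the repeat content of these places was not analysed here. Outside these remote places, a summit with 47.1 lay at 76571772 of chromosome 9, 39.6 kb from PRUNE2.

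Exactly equal values recurred among the low summits. A −log10 q of 5.37 was shared by 54 summits of the whole list, 28 of them outside protein-coding spans and 17 in the remote set. A value of 7.07 was shared by 19, of which 12 were outside, and 3.76 by 17, of which 11 were outside. The median of the remote set, 7.07, is thus itself one of these repeated values. The order of summits within such a group has no meaning.

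All 15 rRNA summits lay in 3 copies of the rRNA precursor gene on chromosome 21: 7 in RNA45SN1, 4 in RNA45SN2 and 4 in RNA45SN3. By region, 9 were in 28S, 4 in the 5′ external spacer, which is removed from the precursor, 2 in the first internal spacer, 0 in 18S and 0 in 5.8S. The 18S pseudogenes RNA18SP and RNA18SP5, counted in the pseudogene class, had summits with −log10 q of 13.0 and 11.4. Sharing of reads between them and 18S was not tested. The copies are near-identical, so which copy a read came from is uncertain, and the copies are better read together than apart.

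In RNA45SN1 the 5′ external spacer held 3 summits, with −log10 q of 80.2 at offset 890, 146 at offset 1771 and 17.0 at offset 2482, counted in bases from the start of the precursor. Its first internal spacer held 1, with 15.7 at offset 5543. Its 28S held 3, with 130 at offset 7932, 73.2 at 9053 and 21.4 at 9979. The summit at 7932 was thus 8 bases into 28S.

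In RNA45SN2 the spacer held 1 summit, with 34.8 at offset 2887, and 28S held 3, with 16.8 at 10269, 21.1 at 10891 and 7.04 at 11921. This copy had no value above 34.8. In RNA45SN3 the first internal spacer held 1 summit, with 8.22 at offset 5684, and 28S held 3, with 44.9 at 8509, 57.2 at 11256 and 175 at 12654. The last is the highest rRNA value and lies near the 3′ end of 28S.

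Between copies, summits rarely fell at matching places. In only 2 pairs from different copies were they within 300 bases: offsets 5543 and 5684 in the first internal spacer (15.7 and 8.22, 141 bases apart) and offsets 9979 and 10269 in 28S (21.4 and 16.8, 290 bases apart). Of the rRNA genes fixed as a list, 29 were in the table; those with a summit were the 3 precursors and their 3 annotated 28S genes, and 0 of the 29 had a MetDiff peak. The RNA had been enriched for poly(A), and how much rRNA was left in the libraries cannot be read from the lists.

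**Figure D3:**
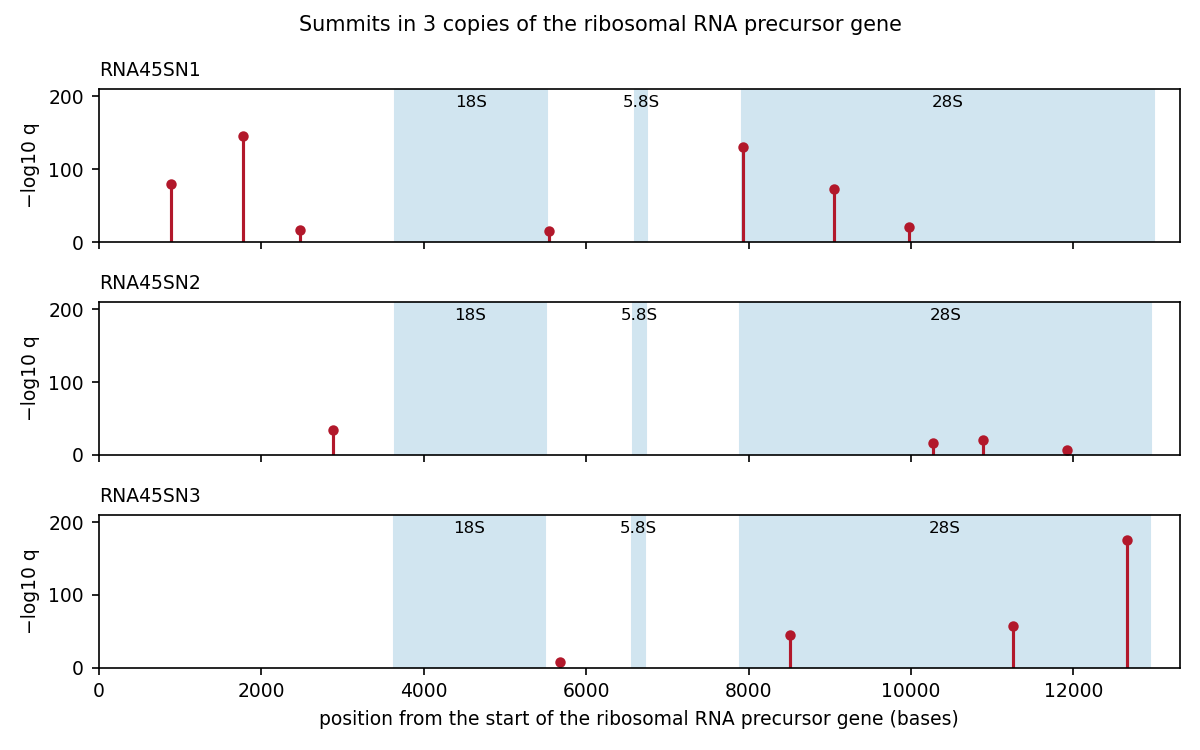
−log10 q of each summit (red) against its position in bases from the start of the rRNA precursor, for RNA45SN1, RNA45SN2 and RNA45SN3. Blue bands mark 18S, 5.8S and 28S. The 18S and 5.8S bands are empty in all 3 copies, and the highest values are 175 in 28S of RNA45SN3 and 146 in the spacer of RNA45SN1.

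The small structured RNAs gave few but strong summits. Of the 24 on the fixed list, 4 had a summit, beside 0.19% of all genes of the class of other RNAs, and 2 a MetDiff peak, beside 0.213%. These backgrounds hold genes that the cells may not express. The list was fixed with earlier results of these data known, so the shares are no test of this group. RN7SL3, a copy of the RNA of the signal recognition particle, had −log10 q of 79.1 and no MetDiff peak. RPPH1, the RNA of RNase P, had 57.6, and its summit lay inside its MetDiff peak with a fold of 3.39. RMRP, the RNA of RNase MRP, had 49.8 and no MetDiff peak. These 3 were above the value of 30 that 13.4% of all summits reach. RN7SL2, another copy of the signal recognition particle RNA, which overlaps the lncRNA LOC105378179, had a summit with 15 and a fold of 3.04. SNORD3A, the U3 small nucleolar RNA that acts on the rRNA precursor, was not on the list and had 20.1 and a fold of 2.03. The folds of RPPH1, RN7SL2 and SNORD3A were below the median of 4.5 of all MetDiff peaks. The last member of the other RNAs was a summit with 3.76 in the immunoglobulin kappa locus IGK.

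By fold, lncRNA peaks were led by genes with little known function. LOC124904704 had 40.7 (chromosome 19, 35575690 to 35575838) and a summit with −log10 q of 10.6. The next, 31.4, lay in the readthrough gene LINC01297-DUXAP10-NBEAP6, which contains the pseudogene DUXAP10. MIR23AHG, the host of a microRNA cluster, had 29.2 as the highest of 6 peaks, whose median was 5.32. SLFNL1-AS1 had 19.3 and LINC00667 14.3.

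Some of the lncRNAs with peaks are host genes of small nucleolar RNAs. Of the 33 on the fixed list that the table holds, 5 had a MetDiff peak outside protein-coding spans, beside 0.311% of all lncRNA genes, and 3 a summit, beside 0.233%. These backgrounds hold lncRNAs that the cells may not express. For 16 of the 33, the gene overlaps a protein-coding span in part or whole, which limits what could be counted. This list too was fixed with earlier results of these data known. SNHG29 had 18.7, SNHG17 14.4 and ZFAS1 14.9, with summits of 11.9 in SNHG29 and 21.2 in ZFAS1. The ZFAS1 summit lay inside its small nucleolar RNA SNORD12C. DANCR had 9.67 and no summit, with the hairpin of MIR4449 ending 59 bases before the peak. SNHG14, the long host transcript of the imprinted Prader-Willi region on chromosome 15, had 8 peaks from 3.55 to 15.7 with a median of 7.5, and summits of 14.6 and 11.9. Of these 8 peaks, 4 overlapped copies of SNORD116: SNORD116-18 with 15.7, SNORD116-15 with 11.9, SNORD116-9 with 5.29 and SNORD116-23 with 3.67. The copies resemble each other, and sharing of reads between them was not tested.

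Another imprinted region, on chromosome 14, held lncRNAs with many peaks. MEG3, expressed from the maternal allele, had 9 peaks with folds of 1.44 to 10.3 and a median of 2.86, below the 4.5 of all peaks, and a summit with 3.1. MEG8 had 2 peaks, with 19.4 and 3.67. MEG9 had 1, with 10.9. Peaks outside protein-coding spans made up 6.77% of MetDiff peaks on chromosome 14, 6.47% on chromosome 15 and 6.36% on chromosome 21, beside 1.97% over all chromosomes.

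The 2 abundant nuclear lncRNAs on chromosome 11 differed in how many members each list gave them. NEAT1, the scaffold of paraspeckles, had 10 MetDiff peaks from 1.56 to 12.7 with a median of 3.64, and 5 summits from 4.91 to 34.6. Several of its 10 peaks overlap one another, so they stand for fewer separate places. MALAT1, found in nuclear speckles, had 1 peak with 3.75 but 8 summits from 4.97 to 92.0 with a median of 20.7. MALAT1 overlaps the antisense gene TALAM1, and the summits carry no strand. NORAD, a cytoplasmic lncRNA that binds PUMILIO proteins, had 2 peaks up to 6.56 and a summit with 7.57. Of the 30 lncRNAs on the fixed list, those with a MetDiff peak outside protein-coding spans were NEAT1, MEG3, NORAD, DANCR and MALAT1, and all of these but DANCR had a summit. For 12 of the 30, the gene overlaps a protein-coding span in part or whole, which limits what could be counted here.

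**Figure D4:**
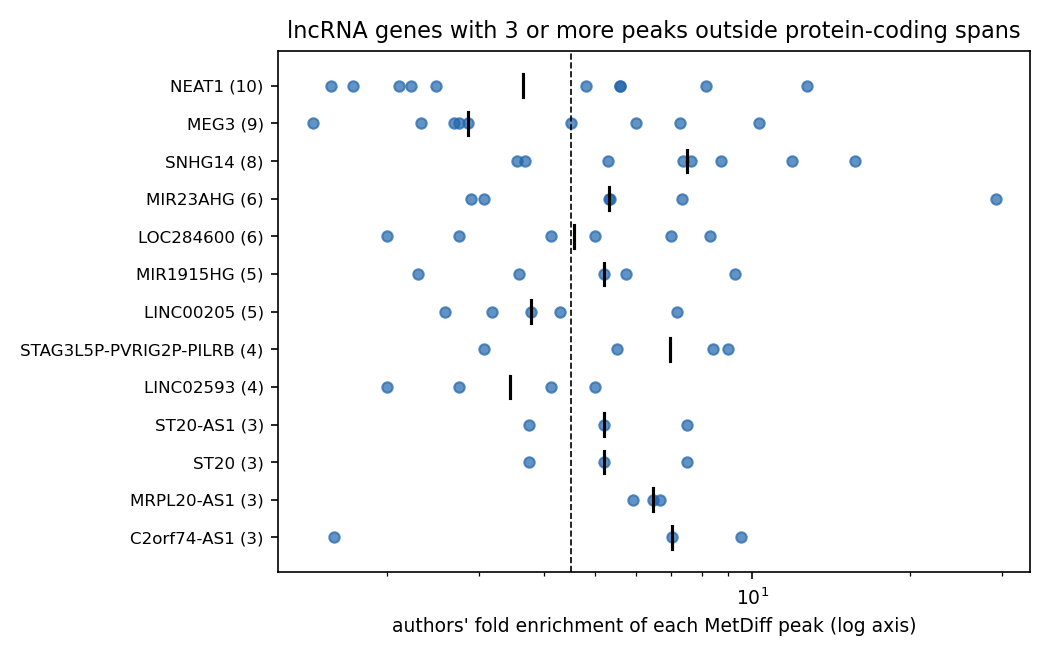
The authors' fold (log axis) of each MetDiff peak outside protein-coding spans, for the 13 lncRNA genes with at least 3 such peaks, the number in brackets. Black ticks are gene medians and the dashed line is the median of all MetDiff peaks, 4.5. SNHG14 has a median of 7.5, whereas NEAT1 (3.64) and MEG3 (2.86) lie below the line. Peaks were given to genes by position, without strand. ST20 and ST20-AS1 therefore share their peaks, although these lie on both strands. The peaks of LINC02593 are also among those of LOC284600. Some peaks of NEAT1 overlap one another.

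Among lncRNA summits, the highest was in LOC112268204 (chromosome 17, 63917062), with −log10 q of 99.0 and 141 bases from the growth hormone gene GH1. LOC105370062 on chromosome 12 had a pair, with 48.3 and 27.5. C2orf74-AS1, which overlaps the pseudogene AHSA2P, had 25.2, inside a MetDiff block. LOC124903884 had 23.3 at 17 bases before the start of RPS6KA1, a kinase of the MAPK route. MAGI2-AS3 had 15.4 at 377 bases before the start of MAGI2, and a MetDiff peak with a fold of 9.65. Of the 55 lncRNA summits, 20 lay within 1000 bases of a protein-coding span. Over both lists and all classes, 29 genes had a member in each, which is 27.1% of the 107 genes with a MetDiff member and 31.9% of the 91 with a summit.

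Pseudogenes gave the highest fold of the MetDiff list, and their parent genes mostly had peaks as well. In the pseudogene class, which leaves out pseudogenes that overlap an lncRNA at the peak, 38 pseudogenes had a MetDiff peak, and 23 of these had a symbol that names a protein-coding parent. The 23 share 21 parents, of which 14 had a peak (66.7%, Wilson interval 45.4 to 82.8), beside 22.0% of all protein-coding genes. For summits, 15 of 30 pseudogenes had such a parent, and 11 of their 14 parents had a summit (78.6%, 52.4 to 92.4), beside 9.48% of all protein-coding genes. These are highly expressed families in part, and a background of expressed genes was not used here. Reads of near-identical copies can be placed on either, so the assignment between pseudogene and parent is uncertain in each pair below.

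In fold, the pseudogene was mostly above its parent. Comparing the highest peak of each, the pseudogene was higher in 13 of 16 pairs and the parent in 3, with HNRNPK and CROCC each in 2 of the pairs. Pairs were built only from pseudogenes that had a peak of their own. The count therefore does not compare pseudogenes with parents in general. HNRNPKP1 had 61.5 and HNRNPKP4 33.8, where HNRNPK, an RNA-binding protein of the hnRNP family, had 30.6. RPS15P4 had 21.0 and RPS15, a protein of the small ribosomal subunit, 4.64. RPS16P1 had 19.2 and RPS16 7.54. RPS2P48 had 16.7 and RPS2 4.36. For these 3 ribosomal protein pairs the pseudogene was thus the higher one. ARHGAP27P1 had 19 and ARHGAP27 6.0. GUSBP11 had 11.1 and GUSB, the lysosomal beta-glucuronidase, 8.21. GOLGA2P10 had 9.56 and the Golgi protein gene GOLGA2 6.82. The parent was higher for SOWAHCP2, HERC2P2 and PKD1P3, which had 5.75, 4.46 and 2.65. DPY19L2P2 had 19.9, and its parent DPY19L2 had no peak. CENPBD1P had 7 peaks up to 16.0 and MTMR9LP 1 with 13.6, and for both the symbol gave no parent. Most of the 7 CENPBD1P peaks overlap one another, so they stand for fewer separate places.

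In −log10 q the order was turned round: the parent was higher in 12 of 12 pairs, with HNRNPK in 2 of them. These pairs too were built only from pseudogenes with a summit. The highest summit of each gene was taken, over numbers of summits that differed: ACTBP2 had 1 and ACTB 5, HNRNPKP1 and HNRNPK 1 each. TPI1P1 had 36.1 and TPI1, triosephosphate isomerase of glycolysis, 83.8. ACTBP2 had 24.8 and ACTB, cytoplasmic beta-actin, 127. HNRNPKP4 had 20.1 and HNRNPKP1 15.2, below the 37.7 of HNRNPK. RPL13P12 had 18.8 and RPL13, of the large ribosomal subunit, 37.7. RPS2P48 had 8.83 and RPS2 65.9. The pairs with values for both genes in both lists were those of HNRNPKP1, HNRNPKP4, RPS2P48 and LDHAP4, and each of these pseudogenes had the higher fold and the lower −log10 q. LDHAP4 had a fold of 8.16 against 2.48 for LDHA, lactate dehydrogenase, and −log10 q of 8.68 against 32.2. Fold and −log10 q are different quantities, and −log10 q depends on how many reads cover a place, which the lists do not give.

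**Figure D5:**
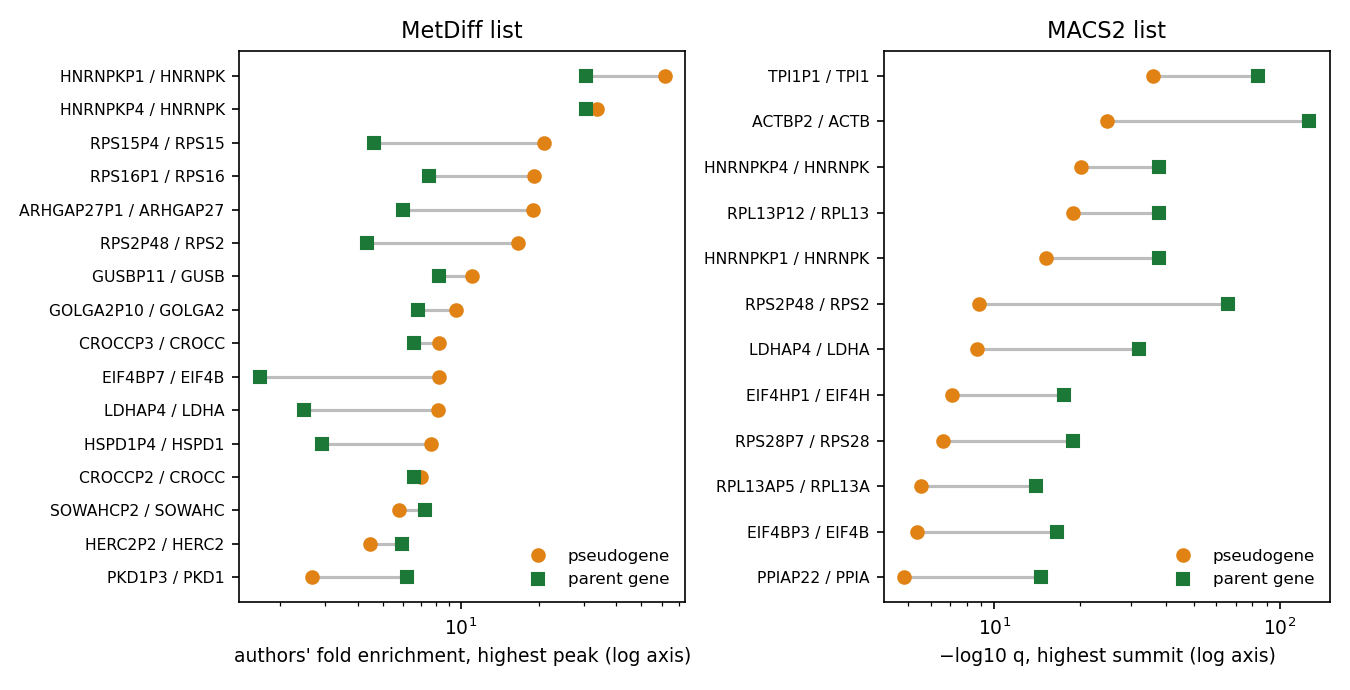
Highest value of each pseudogene (orange circle) and of its parent gene (green square), as the authors' fold (left, log axis, 16 pairs) and −log10 q (right, log axis, 12 pairs). The circle is to the right in 13 of 16 pairs on the left and in 0 of 12 on the right.

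Few copies of any pseudogene family were listed. Over all pseudogenes of the table, 0.409% had a member in either list. Of 1994 ribosomal protein pseudogenes in the table, 7 had a member in either list, and of 127 hnRNP pseudogenes 2. Initiation factor pseudogenes gave 3 of 89, and 1 each came from actin, heat shock, PPIA, LDH and TPI pseudogenes. Pseudogenes of EEF1, GAPDH, tubulins, keratins, ferritins, enolase, PKM, NPM1, PTMA and YWHA gave 0, and no difference between families was tested. Summits also lay in pseudogenes of non-coding RNAs: RN7SL471P with −log10 q of 16.2, RNA18SP with 13.0, RNA18SP5 with 11.4 and RNA28SP with 2.52. LOC110467529, on chromosome 21, had 20.4 and LOC110467531, on chromosome 19, 15.9. MTRNR2L1, a nuclear copy of mitochondrial rRNA sequence, had 10.6. The hairpin of MIR6080 lay inside an ARHGAP27P1 peak with a fold of 3.71, on the opposite strand.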

How the data were processed

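RNA of PANC-1 cells was precipitated with an anti-m1G antibody or kept as input, in 12 libraries (3 per group). Both lists cover the series as a whole, so groups could not be compared and depth is unknown. MACS2 2.2.5, STAR 2.7.1, ChIPseeker, bedtools, featureCounts, Picard and SAMtools, with the GRCh38 build, are named in the submitters' processing notes. Settings and any pooling of libraries: not given in the sources used here. Per summit, the deposited MACS2 list gives a −log10 value. The deposited MetDiff list gives for each peak a p-value, a false discovery rate as log10 and a ratio, taken as the fold enrichment. Neither list has a header, and units were read from the values.

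Coordinates are GRCh38, counted from 1. Genes came from the RefSeq table (GRCh38.p14, 58998 rows used). Another 718 rows were left out, because their order along the chromosome showed positions on other scaffolds. The table has no strand or exons, so strand came from the RefSeq promoter table, for 79.7% of 19879 protein-coding genes. A gene start is the 5′ edge of the RefSeq span. Shares have 95% Wilson intervals. Python 3.11.15, numpy 2.4.6, pandas 2.3.3 and scipy 1.17.1 were used, and the assignment was tested on simulated peaks. Parents of pseudogenes were read from symbols.

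The text names, per list and class, the 10 genes or positions with the highest value, all rRNA and small structured RNA members, members in the fixed lncRNA lists, and pseudogenes in the top 10 with a listed parent. Genes beyond this, and the set before gene starts, were chosen after their values were seen. The members and lists were chosen with earlier results of these data known. Alternatives were the distance from protein-coding spans, stricter FDR and −log10 q limits, the class rule and the gene rows used.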

Additional observations from a re-analysis of the deposited data

How the results depend on the processing

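Of 61 alternative values, 50 were counted as unmoved, 11 as moved and 0 as changing direction. These counts do not follow a single limit on size. The median −log10 q of the other RNAs, counted as unmoved, fell from 49.8 to 11.9 without members within 5000 bases of a protein-coding span. Without members within 5000 bases of a protein-coding span, 124 MetDiff peaks and 157 summits remained of 189 and 334. Their median −log10 q was then 7.6 in place of 11.4, and the median fold 5.3. Without those within 1000 bases, 161 summits were left. With −log10 q of at least 10 there were 193 summits with a median of 17.5. The share of summits at a MetDiff block was 39.2% within 150 bases in place of 3.89% inside it. Chosen after seeing the data, windows of 50 and 300 bases before a start held 102 and 136 summits in place of 131, and gene rows on other scaffolds changed no count of members per list. No paired analysis was possible because the lists hold no column per library. The precision of fold and −log10 q cannot be given without depth.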
